A study of Mus musculus with 51 samples.

Results

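The step from day 3 to day 4 of the differentiation of wild-type mouse embryonic stem cells (mESCs) toward neuromesodermal progenitors was followed in 8 of the 51 libraries of the series, 4 taken at day 3 and 4 taken at day 4. The members were the libraries that the sample labels give as wild type and as either day. Every library was read for the 39 *Hox* genes and 34 pluripotency and differentiation factors for which the authors deposited expression values. The cells were male, of the strain C57BL/6/Cast F1, and carried the genotype Smchd1[fl/+], a floxed and an intact allele, which the labels count as wild type. The labels also name Zp3-Cre, a recombinase active in oocytes, as the deleter of the maternal null lines of this series. Both days shared a medium with FGF and the Wnt activator CHIR99021, and the day 4 cells had in addition received GDF11 for 24 h. No day 4 library without GDF11 was analysed here, so a day of further culture and the addition of GDF11 cannot be told apart.

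The series as a whole asks how deletion of *Smchd1* in the oocyte affects *Hox* genes in embryos and in differentiating mESCs. By the labels, replicates 1 to 3 of each day came from line 1 and replicate 4 from line 2, whereas the study's figure legends describe an equal number of technical replicates from each line. The p-values therefore measure the spread between these libraries, part of which may be technical.

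*Hox* genes encode homeodomain transcription factors that give cells their position along the head to tail axis. They lie in 4 clusters, *HoxA* to *HoxD*, and genes with the same number in different clusters (paralogs) resemble each other. The genes of a cluster are switched on in the order of their numbers, low numbers first and in anterior tissue, high numbers last and in posterior tissue. Neuromesodermal progenitors are bipotent cells of the tailbud that express the mesodermal factor T (named *Tbra* in the files) together with the neural factor *Sox2*. GDF11 is a ligand of the TGF-beta family that signals through SMAD factors and is known for its part in the passage from trunk to tail.

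Values are log2 RPKM, the log2 of reads scaled to the length of the transcript and the size of the library, and a difference is the day 4 mean minus the day 3 mean on that scale. Each value corresponded to a whole number of reads, and a gene without reads carried the value of 0.9 reads, which is lower in a deeper library. The depth implied by the values was between 2.11 and 52.8 megareads (M reads) in the day 3 libraries and between 2.68 and 73.9 M reads in the day 4 libraries. These depths overlapped between the days. The summed reads of the *Hox* genes were between 933 and 28161 per library at day 3 and between 4778 and 23203 at day 4. In bulk RNA, more cells that use a gene and more RNA per cell cannot be told apart. Replicate 1 of day 3 had the lowest value of its day for 33 of the 39 *Hox* genes, and replicate 4 of day 4, the library of line 2, for 37. Replicate 2 of day 4 had the highest value of its day for 35. The median level of the *Hox* genes was -1.30 in replicate 1 of day 3 and between 0.51 and 1.23 in the other three libraries, and at day 4 it was 3.75 in replicate 2, 1.09 in replicate 4 and between 2.54 and 2.79 in the others.

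The promoters of *Hoxd10* and *Hoxd11* are shown because these genes were among those that rose most, and those of *Hoxd8* and *Hoxb8* because they are paralogs of which *Hoxd8* rose and *Hoxb8* did not pass the test. Each run holds the 250 bases before a RefSeq start (GRCm38.p6), 5′ to 3′, with the matches to any of 3 motifs in capitals.
Hoxd11 chr2:74679308-74679557 plus strand: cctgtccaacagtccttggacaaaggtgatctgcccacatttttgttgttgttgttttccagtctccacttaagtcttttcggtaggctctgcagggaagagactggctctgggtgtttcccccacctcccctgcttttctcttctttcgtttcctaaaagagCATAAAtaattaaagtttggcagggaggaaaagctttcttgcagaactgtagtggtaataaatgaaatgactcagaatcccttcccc
Hoxd10 chr2:74691641-74691890 plus strand: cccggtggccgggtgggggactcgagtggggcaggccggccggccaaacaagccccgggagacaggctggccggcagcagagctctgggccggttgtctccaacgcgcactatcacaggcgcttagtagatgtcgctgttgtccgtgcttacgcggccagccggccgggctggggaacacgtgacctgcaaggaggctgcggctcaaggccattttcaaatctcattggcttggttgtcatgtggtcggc
Hoxd8 chr2:74704365-74704614 plus strand: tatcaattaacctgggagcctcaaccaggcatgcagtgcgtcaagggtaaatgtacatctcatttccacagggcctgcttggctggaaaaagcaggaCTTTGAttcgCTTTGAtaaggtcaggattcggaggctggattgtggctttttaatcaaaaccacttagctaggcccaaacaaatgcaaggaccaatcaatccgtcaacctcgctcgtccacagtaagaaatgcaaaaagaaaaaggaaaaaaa
Hoxb8 chr11:96281655-96281904 plus strand: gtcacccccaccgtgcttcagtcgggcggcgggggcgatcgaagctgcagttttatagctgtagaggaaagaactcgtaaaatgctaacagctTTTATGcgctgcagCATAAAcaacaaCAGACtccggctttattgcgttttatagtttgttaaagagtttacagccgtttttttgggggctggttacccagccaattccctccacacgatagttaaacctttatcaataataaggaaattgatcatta
The motifs searched on both strands were CAGAC, a short element bound by SMAD factors, CTTTGA, a core bound by TCF/LEF factors of the Wnt pathway, and TTTATG, a core bound by CDX factors. None of the 3 motifs overlapped another in these windows. CAGAC was in 42.2% of 32851 promoter windows of the same length, CTTTGA in 13.8% and TTTATG in 10.8%. Windows were found for 22 of the 39 *Hox* genes, and 9 of the 12 *Hox* genes that rose had 11 windows between them. Of these 11 windows, 1 held CAGAC, 2 held CTTTGA and 2 held TTTATG. The window of *Hoxd8* held CTTTGA in 2 places, the window of *Hoxd11* shown held TTTATG (as CATAAA) and that of *Hoxb8* held TTTATG in 2 places and CAGAC in 1. A second window of *Hoxd11* (chr2:74682073-74682322), not shown, and the window of *Hoxd10* held no match. The last base of the *Hoxd11* window is the first base of *Hoxd11* in the GENCODE annotation, and the other windows lie outside annotated exons.

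From day 3 to day 4, 12 *Hox* genes rose and 5 factors fell by limma's moderated test with Benjamini-Hochberg adjustment over all 73 genes (adjusted p under 0.05). This was 23.3% of the 73 genes, 16.4% called higher and 6.85% called lower. The genes that rose were *Hoxd3*, *Hoxc6*, *Hoxd8*, *Hoxa9*, *Hoxc9*, *Hoxd9*, *Hoxa10*, *Hoxc10*, *Hoxd10*, *Hoxa11*, *Hoxd11* and *Hoxa13*, and the factors that fell were *Nkx1-2*, *Klf2*, *Gdf3*, *Pou5f1* and *Sox2*. The day 4 values lay wholly above those of day 3 for 12 genes (16.4% of the 73) and wholly below for 8 (11%), together 27.4%. With each library centred on the median of its 73 genes, which lowers every difference by 1.03, the split of the calls moved from 12 higher and 5 lower to 14 higher and 19 lower, and *Hoxb2* was then among the genes called lower. All differences are given without this centring unless it is named.

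**Figure D1:**
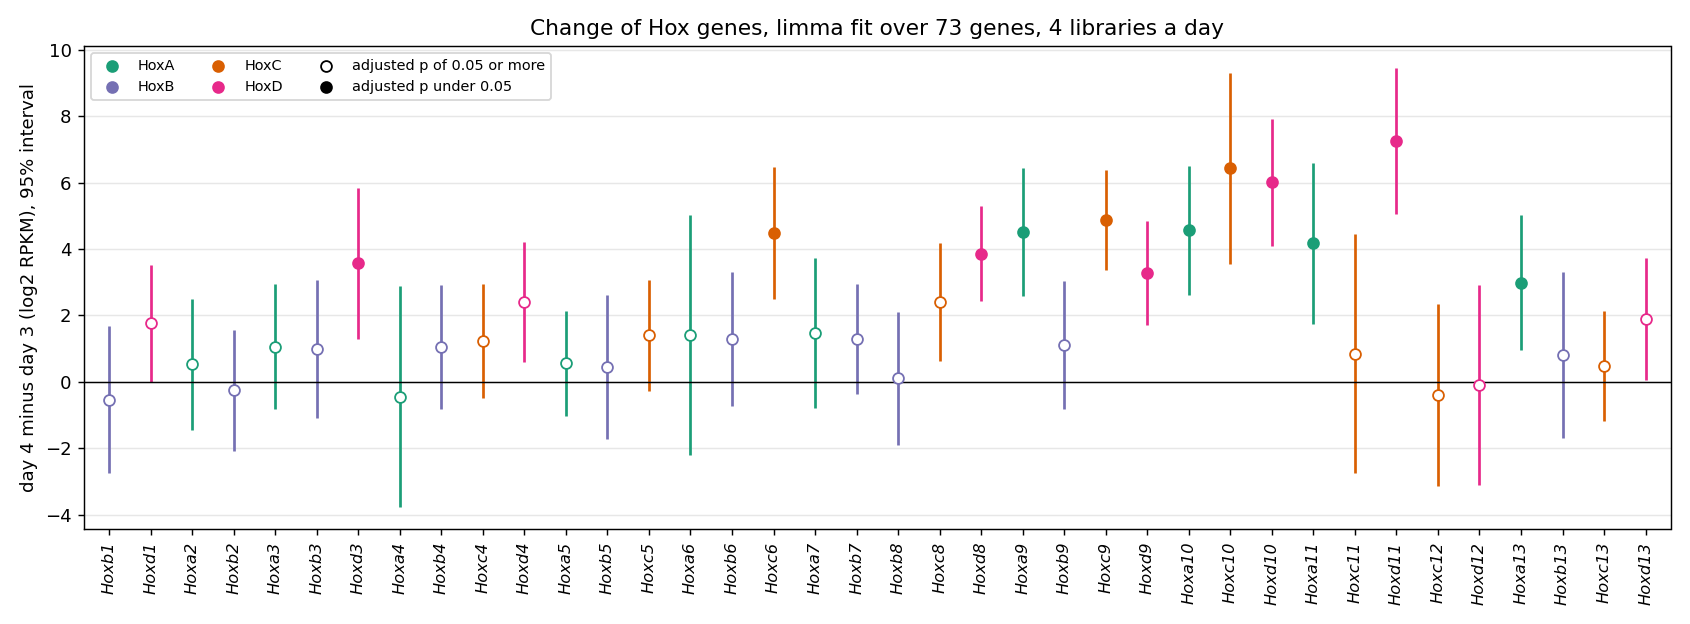
Difference of 38 *Hox* genes, day 4 minus day 3, in log2 RPKM (y axis), with genes ordered by paralog group (x axis). Points are limma estimates over 4 libraries a day with their 95% intervals, colours mark the clusters and filled points have an adjusted p under 0.05. The filled points begin with *Hoxd3* at 3.56 and reach 7.26 at *Hoxd11*, and none belongs to *HoxB*.

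Ordered by paralog number, the median differences were larger in groups 8 to 11 than in the groups before and after them. The 12 genes of groups 1 to 4, the anterior genes, had a median difference of 1.01 (of -0.015 after centring, so that its direction flipped), the 15 of groups 5 to 9, the central genes, 1.40, and the 12 of groups 10 to 13, the posterior genes, 2.43. The median over all 73 genes was 0.44. With a pseudocount of 1 RPKM the median was 0.67 in groups 10 to 13 and 0.98 in groups 1 to 9, against 2.43 and 1.28 without it, so that the order of the posterior genes and the rest turned round. Of the anterior genes 1 was called higher (8.33%), of the central genes 5 (33.3%) and of the posterior genes 6 (50%). The share was 30.8% of all 39 *Hox* genes and 16.4% of the 73 genes, so that of the central genes was near the *Hox* share. None was called lower in any of these lists. By paralog group, the median difference was -0.54 in group 1, 0.13 in group 2, 1.06 in group 3, 1.13 in group 4, 0.56 in group 5, 1.40 in group 6, 1.38 in group 7, 2.40 in group 8, 3.89 in group 9, 6.00 in group 10, 4.17 in group 11, -0.25 in group 12 and 1.34 in group 13. The largest medians thus stood in groups 9 to 11. After centring the medians of groups 2 and 5 turned negative (-0.89 and -0.47). Across the 33 genes of groups 1 to 11, Spearman's rho between paralog number and difference was 0.64. This leaves out groups 12 and 13, whose medians were lower than those of groups 8 to 11. The rho was not computed over all 39 genes or with a pseudocount. Over the same 33 genes, the rho between paralog number and level was -0.57 at day 3 and 0.048 at day 4. The fall of the level along groups 1 to 11 at day 3 was thus not seen at day 4. Groups 12 and 13 stood lower at day 4, with median levels of -4.61 and -1.31. The median level was 2.55 in groups 1 to 4 and 3.08 in groups 5 to 9. These correlations are across genes of the same 8 libraries, which are not independent replicates.

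**Figure D2:**
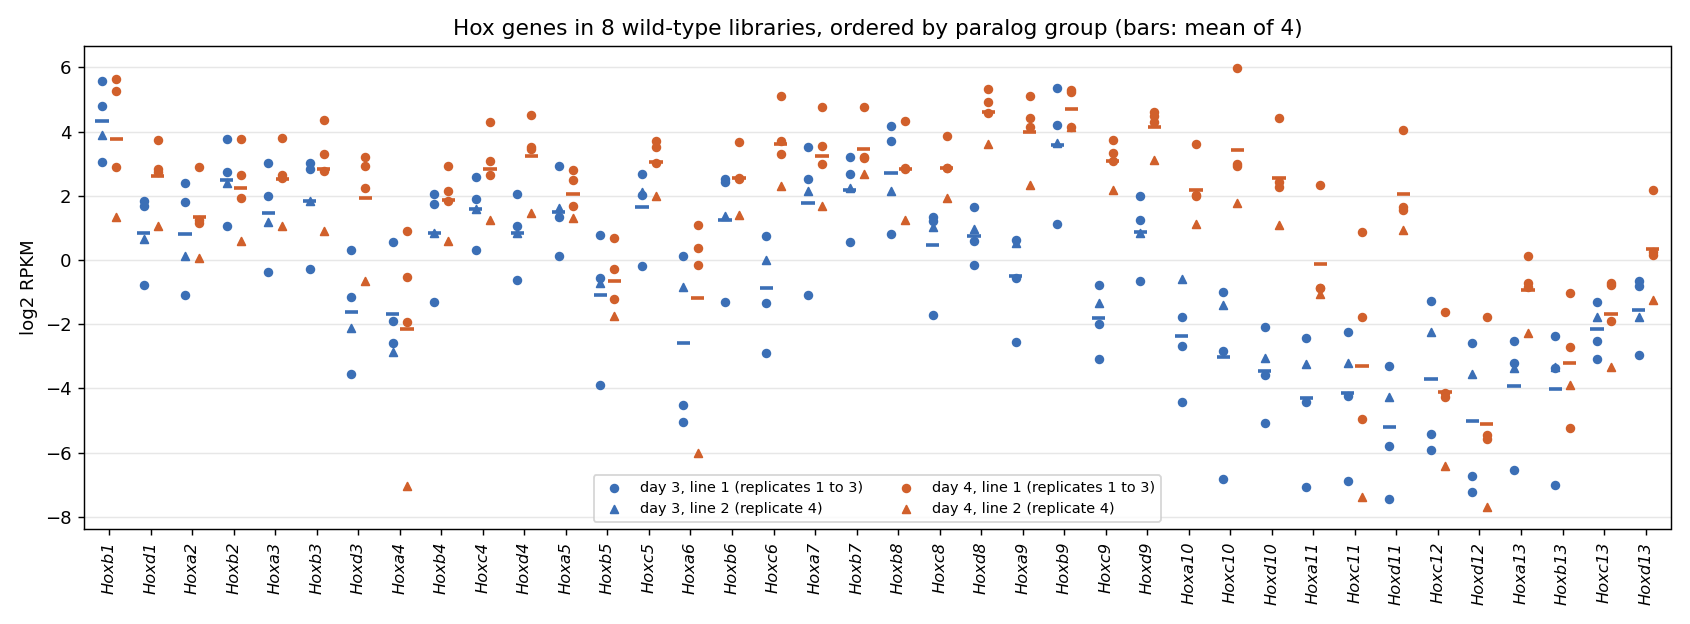
Level of 38 *Hox* genes in log2 RPKM (y axis), with genes ordered by paralog group (x axis). Points are the 4 libraries of day 3 (blue) and of day 4 (orange), triangles mark line 2 and short bars are the means. At day 3 every library lies below 0 for the 12 genes of groups 10 to 13, and at day 4 the genes of groups 9 and 10 lie between 1.09 and 5.98.

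Most anterior genes were already expressed at day 3, and 1 of the 12 was called (8.33%, beside 30.8% of the 39 *Hox* genes). *Hoxd1* had the largest difference of group 1. It was at -0.79, 1.67, 1.83 and 0.64 in day 3 replicates 1 to 4 and at 2.84, 3.75, 2.74 and 1.07 in day 4 replicates 1 to 4, where only the library of line 2 lay within the day 3 range. Its difference of 1.76 ± 0.80 (SE, n = 4 a day) had an adjusted p of 0.127 (limma). *Hoxa2*, the largest of group 2, was at -1.09, 2.41, 1.79 and 0.12 at day 3 and at 1.15, 2.88, 1.23 and 0.06 at day 4. The days overlapped and the difference was 0.52, which was -0.50 after centring.

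In group 3, *Hoxd3* was the gene of the anterior list that rose. It was at -3.54, -1.15, 0.31 and -2.12 at day 3 and at 3.22, 2.94, 2.25 and -0.65 at day 4. The 3 day 4 libraries of line 1 lay above every day 3 library, while the day 4 library of line 2 lay within the day 3 range. The difference was 3.56 ± 1.04 (SE, adjusted p = 0.026, limma). *Hoxd3* shares 62.3% of its exon length with *Hoxd4* and *Gm28230* on the same strand, so reads could be counted for both. *Hoxd4*, which shares 52.3% of its exon length with the same neighbours, had a difference of 2.40 ± 0.82 (SE, adjusted p = 0.0531), from -0.61, 1.06, 2.06 and 0.85 at day 3 to 3.45, 4.52, 3.52 and 1.45 at day 4. Of the 21 alternatives, *Hoxd4* passed in 9. The call of *Hoxd3* was lost when any of 5 libraries was left out (replicates 1 and 4 of day 3 and replicates 1, 2 and 3 of day 4), with an adjusted p of up to 0.0985. *Hoxa4* of the same group as *Hoxd4* had no reads in day 3 replicates 3 and 4 and none in the library of line 2 at day 4, the deepest of the 8.

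Among the central genes the median differences were larger in groups 8 and 9 than in groups 5 to 7. In group 5, *Hoxc5* had the largest difference, 1.40 (adjusted p = 0.21, limma). It was at -0.20, 2.02, 2.69 and 2.10 at day 3 and at 3.51, 3.69, 3.03 and 1.99 at day 4, with the library of line 2 inside the day 3 range. In group 6, *Hoxc6* was at -2.90, 0.75, -1.35 and 0.00 at day 3 and at 3.31, 5.10, 3.71 and 2.31 at day 4. All 4 day 4 libraries were higher than the highest of day 3, and the difference was 4.48 ± 0.90 (SE, adjusted p = 0.00384, limma), a 22.3-fold rise. *Hoxa6* of the same group had 1 or 2 reads in each day 3 library, 19, 5 and 12 in those of line 1 at day 4, and 1 read in the library of line 2. In group 7, *Hoxa7* was at -1.08, 3.52, 2.53 and 2.15 at day 3 and at 3.54, 4.78, 3.00 and 1.68 at day 4, and its difference of 1.47 ± 1.02 (SE) did not pass the test (adjusted p = 0.31).

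*Hoxd8* was at -0.17, 0.58, 1.64 and 0.95 at day 3 and at 4.92, 5.32, 4.56 and 3.61 at day 4. No library of one day reached the range of the other, and the difference was 3.85 ± 0.65 (SE, adjusted p = 0.00189, limma). *Hoxc8* did not overlap between the days either, with -1.70, 1.34, 1.23 and 1.03 against 2.86, 3.87, 2.85 and 1.94, but its difference of 2.40 ± 0.81 (SE) had an adjusted p of 0.0516. Of the 21 alternatives, *Hoxc8* passed in 7. *Hoxb8* was at 0.82, 4.18, 3.71 and 2.14 at day 3 and at 2.82, 4.34, 2.87 and 1.23 at day 4. Its difference of 0.11 ± 0.90 (SE, 95% interval -1.89 to 2.10) did not pass the test and was -0.92 after centring.

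Group 9 genes, the last of the central genes, are used in the lower trunk. *Hoxa9* was at -2.56, -0.56, 0.61 and 0.51 at day 3 and at 4.42, 5.11, 4.13 and 2.33 at day 4, a difference of 4.50 ± 0.87 (SE, adjusted p = 0.00356, limma). *Hoxc9* was at -3.10, -1.99, -0.77 and -1.33 at day 3 and at 3.09, 3.72, 3.34 and 2.17 at day 4. Its difference of 4.88 ± 0.68 (SE, adjusted p = 0.000677, limma), a 29.4-fold rise, was the largest of the group. *Hoxd9* was at -0.67, 1.24, 2.00 and 0.85 at day 3 and at 4.50, 4.61, 4.30 and 3.12 at day 4, a difference of 3.28 ± 0.71 (SE, adjusted p = 0.00586). For these 3 genes every day 4 library lay above every day 3 library. *Hoxb9* was already high at day 3, at 1.12, 5.35, 4.20 and 3.65, and at 4.13, 5.29, 5.22 and 4.13 at day 4. Its difference of 1.11 ± 0.88 (SE) did not pass the test (adjusted p = 0.375), and with a mean of 4.69 it was the highest *Hox* gene of day 4, followed by *Hoxd8* at 4.60.

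The posterior genes of groups 10 and 11 had few reads at day 3, and 5 of these 6 genes rose, beside 30.8% of the 39 *Hox* genes. *Hoxa10*, a regulator of lumbar identity, was at -4.43, -2.69, -1.79 and -0.59 at day 3 and at 2.01, 3.60, 1.99 and 1.13 at day 4, a difference of 4.56 ± 0.88 (SE, adjusted p = 0.00356, limma). *Hoxc10* was at -6.81, -2.84, -1.01 and -1.40 at day 3 and at 2.99, 5.98, 2.91 and 1.78 at day 4, a difference of 6.43 ± 1.30 (SE, adjusted p = 0.00384). In reads this was 0, 10, 2 and 3 against 254, 323, 221 and 484. *Hoxd10* was at -3.58, -5.09, -2.09 and -3.06 at day 3 and at 2.42, 4.42, 2.26 and 1.09 at day 4, a difference of 6.00 ± 0.87 (SE, adjusted p = 0.000677). The reads of *Hoxd10* were 8, 2, 0 and 0 against 163, 104, 134 and 285, and the sizes of the differences of *Hoxc10* and *Hoxd10* depend on the value of 0.9 reads given to libraries at 0. All 3 group 10 genes were higher in every day 4 library than in any of day 3.

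*Hoxd11* had the largest difference of the 73 genes. It lies at chr2:74679557-74687016 on the plus strand (GRCm38). It was at -5.80, -7.46, -3.30 and -4.28 at day 3 and at 1.56, 4.06, 1.64 and 0.95 at day 4, a difference of 7.26 ± 0.99 (SE, adjusted p = 0.000677, limma). The day 3 libraries held 4, 0, 0 and 0 reads of *Hoxd11* and the day 4 libraries 208, 188, 202 and 600. Since 3 of the 4 day 3 libraries were at 0, the size of this fitted difference depends on the value of 0.9 reads given to them. Summed over the libraries of a day, 4 reads in 96.6 M reads stood against 1198 in 109 M reads, a ratio of rates of 266 (95% exact interval 104 to 979, counting error only). *Hoxd10* and *Hoxd11* share 5.73% and 10.8% of their exon length with the annotated transcript *Gm28309* on the same strand. *Hoxa11* rose by 4.17 ± 1.10 (SE, adjusted p = 0.0176), from -7.07, -4.42, -2.42 and -3.24 to -0.87, 2.34, -0.89 and -1.06. With a pseudocount of 1 RPKM this call was lost (adjusted p = 0.151, limma). *Hoxa11* had 0, 4, 0 and 1 reads at day 3 and 21, 31, 19 and 81 at day 4, and 35.0% of its exon length overlaps its antisense gene *Hoxa11os*, whose reads could be told apart only if the counting used strand. *Hoxc11*, the remaining gene of the group, had 10, 10, 1 and 0 reads at day 4.

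*Hoxc12* had no reads in any of the 8 libraries and *Hoxd12* had 2 reads in 1 library of day 4. Apart from that library, their deposited values are those of 0.9 reads and follow the depth of each library, and no difference was detectable at this depth. For *Hoxc12*, 0 reads at day 4 allow up to 3 reads in 109 M reads. In group 13, *Hoxa13* had 14, 1, 0 and 1 reads at day 3 and 45, 4, 21 and 38 at day 4. In log2 RPKM it was at -3.22, -6.54, -2.54 and -3.36 and then at 0.12, -0.73, -0.86 and -2.26, so that the days were separate, and its difference of 2.98 ± 0.92 (SE) passed the test (adjusted p = 0.0347, limma). This call was lost under 11 of the 20 alternatives that tested the gene, including 5 of the 8 that left out 1 library (replicates 2 and 4 of day 3 and replicates 1, 2 and 3 of day 4).

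**Figure D3:**
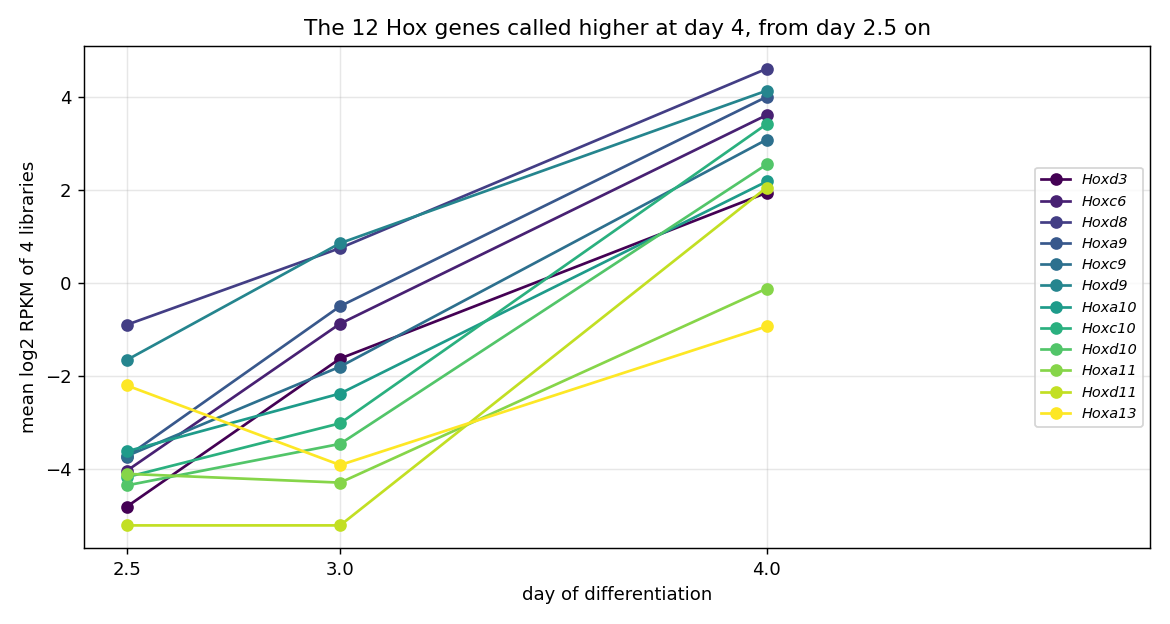
Mean level in log2 RPKM (y axis) of the 12 *Hox* genes called higher at day 4, at days 2.5, 3 and 4 (x axis), each the mean of 4 wild-type libraries. *Hoxd11* has a mean of -5.21 at day 2.5 and at day 3 and of 2.05 at day 4. Its day 3 mean rests on the value of 0.9 reads, since 3 of the 4 libraries held no reads. *Hoxa9* goes from -3.73 to -0.50 and 4.00.

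Several of these genes already had a higher mean at day 3, before GDF11 was added, than at day 2.5. The Wnt activator was present from day 2. The step from day 2.5 to day 3 shares the day 3 libraries with the step studied here, so the values are set side by side without a test. From day 2.5 to day 3 the mean changed by 3.23 for *Hoxa9*, 3.16 for *Hoxc6*, 3.18 for *Hoxd3* and 2.51 for *Hoxd9*, and by 1.92 for *Hoxc9* and 1.65 for *Hoxd8*. It changed by 1.24 for *Hoxa10*, 1.16 for *Hoxc10*, 0.89 for *Hoxd10*, -0.19 for *Hoxa11* and -1.71 for *Hoxa13*, while the mean of *Hoxd11* was -5.21 on both days. The 10 *HoxB* genes, none of which passed the test after day 3, had differences in the earlier step between -0.26 for *Hoxb13* and 3.73 for *Hoxb8*, with 0.85 for *Hoxb1*, 1.29 for *Hoxb2* and between 2.31 and 3.65 for the 6 others. A single library of day 2.5 had an implied depth of 1.98 M reads, and the values of genes without reads are raised in it. The same holds for replicates 3 and 4 of day 3 (2.11 and 4.14 M reads). At day 3, 3 of the 4 libraries held no reads of *Hoxd11*, 2 none of *Hoxa11* or *Hoxd10*, and 1 none of *Hoxc10* or *Hoxa13*. For these genes the size of the earlier step depends on the value of 0.9 reads, and an unchanged mean does not show an unchanged level.

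Read by cluster, none of the 10 *HoxB* genes was called, and their median difference was 0.89 (-0.13 after centring, which flips the direction). *HoxA* had 4 of 11 genes called higher (36.4%) and a median of 1.40, *HoxC* 3 of 9 (33.3%) and 1.40, and *HoxD* 5 of 9 (55.6%) and 3.28. The shares of *HoxA* and *HoxC* were near the 30.8% of all 39 *Hox* genes. To compare paralogs without the scaling of the libraries, each gene was divided by the *HoxB* gene of its group within the same library. This comparison was chosen after the values were seen. There were 18 such ratios in groups 1 to 9, and for 9 of them (50%) the day 3 and day 4 libraries did not overlap. Each of these 9 had an exact two-sided permutation p of 0.0286, the smallest that 4 libraries against 4 can give, and 0.0571 after Benjamini-Hochberg adjustment over the 18 ratios, which is above the threshold. Among the genes divided were *Hoxd3*, *Hoxc6*, *Hoxd8*, *Hoxa9*, *Hoxc9* and *Hoxd9*, which were already called in the same libraries. The ratios are therefore a description and not separate evidence.

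The log2 ratio of *Hoxd8* to *Hoxb8* was -0.98, -3.60, -2.08 and -1.18 at day 3 and 2.09, 0.98, 1.69 and 2.38 at day 4. *Hoxd8* was thus below its paralog in every day 3 library and above it in every day 4 library. The ratio of *Hoxc6* to *Hoxb6* turned in the same way, from -1.60, -1.67, -3.88 and -1.36 to 0.78, 1.43, 1.16 and 0.91. The ratio of *Hoxc9* to *Hoxb9* went from -4.22, -7.34, -4.98 and -4.98 to -1.04, -1.57, -1.88 and -1.96, so that *Hoxc9* stayed below *Hoxb9*. The ratios of *Hoxa9* and *Hoxd9* to *Hoxb9* changed by 3.39 and 2.17. The other ratios whose days were separate were those of *Hoxd1* to *Hoxb1*, with a change of 2.31, *Hoxd3* to *Hoxb3*, 2.58, *Hoxd4* to *Hoxb4*, 1.36, and *Hoxc8* to *Hoxb8*, 2.30. All 9 had a higher mean at day 4. The 4 ratios of *HoxA* genes to *HoxB* genes in groups 3, 5, 6 and 7 changed by 0.075 to 0.19 and overlapped. That of *Hoxa6* rests on few reads, with an SD of 2.45 at day 3 and 2.47 at day 4, so its small change does not show stability. The ratios of *Hoxa2* to *Hoxb2* and *Hoxa4* to *Hoxb4* overlapped as well, with changes of 0.78 and -1.49. For the latter, 3 libraries had a gene without reads.

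**Figure D4:**
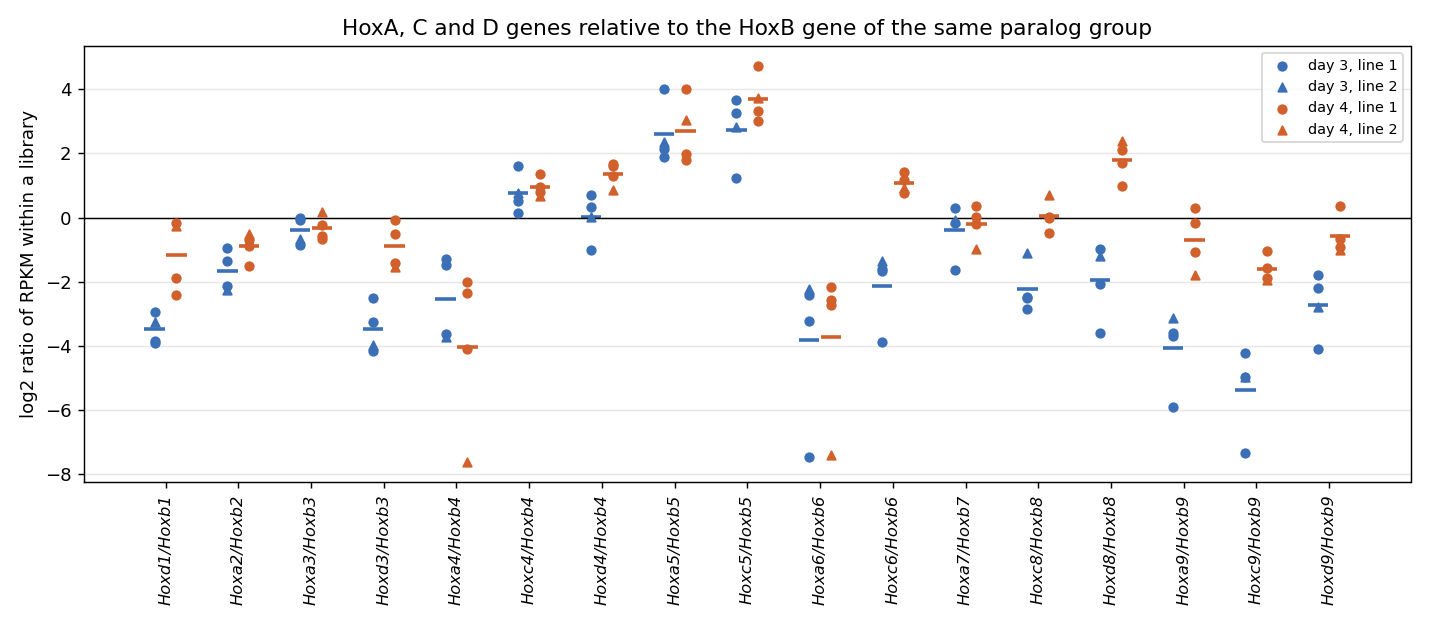
Log2 ratio of RPKM within a library (y axis) of 17 *HoxA*, *HoxC* and *HoxD* genes to the *HoxB* gene of the same paralog group (x axis), for the 4 libraries of day 3 (blue) and of day 4 (orange), with triangles for line 2 and bars for the means. The days are separate for 9 ratios, and those of *Hoxc6* and *Hoxd8* pass from below 0 to above 0.

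Line 2 is represented by 1 library a day. Its own differences were between 1.09 and 5.23 for the 12 *Hox* genes that rose and between -1.75 and -5.17 for the 5 factors that fell. These libraries entered the calls, so their direction is a description. Over all 27 genes of groups 1 to 9, the mean level in line 2 was 1.06 at day 3 and 0.96 at day 4. It was 1.08 and 0.31 over the anterior genes, 1.05 and 1.47 over the central and -2.65 and -2.36 over the posterior genes. Genes without reads in the day 4 library lower these means, and in groups 1 to 9 *Hoxa4* was the only such gene. Of the anterior genes, *Hoxd1*, *Hoxd3* and *Hoxd4* were higher at day 4 in line 2, by 0.43, 1.47 and 0.60. All other anterior genes were lower there, from -0.057 for *Hoxa2* to -2.57 for *Hoxb1*, with -4.16 for *Hoxa4*, which had no reads on either day. The median difference of groups 1 to 9 was positive (1.28, and 1.71 in line 1 only). The mean level of these genes in line 2, a different measure, was not higher at day 4. Without line 2, 13 genes were called higher and 4 lower.

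Among the factors, the defining genes of neuromesodermal progenitors were all at a lower mean at day 4, and 2 of the 7 in the table were called (28.6%, beside 23.3% of all 73 genes and 14.7% of the 34 factors). Of all 34 factors, 27 were at a lower mean at day 4, with a median difference of -1.02. *Nkx1-2*, a homeobox factor of these progenitors, was at 4.13, 7.39, 5.36 and 4.83 at day 3 and at 0.75, 2.30, 0.60 and -0.34 at day 4. Every day 4 library was lower, and *Nkx1-2* fell by 4.60 ± 0.84 (SE, adjusted p = 0.00304, limma), a 24.3-fold decrease and the largest fall of the 73 genes. Of the exon length of *Nkx1-2*, 16.6% overlaps the antisense gene *Gm16764*. *Sox2*, which maintains neural and pluripotent identity, was at 3.35, 4.86, 3.74 and 4.45 at day 3 and at 1.00, 2.12, 1.74 and 2.65 at day 4. It fell by 2.22 ± 0.63 (SE, adjusted p = 0.0239). The call of *Sox2* was lost when replicate 2 or 4 of day 3 or replicate 1 or 3 of day 4 was left out, and without line 2.

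T (*Tbra*), the mesodermal member of the pair, was at 6.77, 7.78, 7.47 and 6.66 at day 3 and at 6.38, 6.06, 6.65 and 5.63 at day 4. The day 4 libraries lay just below those of day 3, but the difference of -0.99 ± 0.58 (SE) did not pass the test (adjusted p = 0.246, limma). T passed in 2 of the alternatives, limma-voom on the recovered reads (-1.41, adjusted p = 0.00642) and centring (-2.02, adjusted p = 0.0142). *Cdx1* and *Cdx2*, caudal factors that regulate *Hox* genes, had differences of -2.04 ± 0.77 and -1.53 ± 0.63 (SE, adjusted p = 0.0753 and 0.106). *Cdx1* was at 4.69, 7.73, 6.58 and 5.83 and then at 4.34, 5.04, 4.26 and 3.05, and *Cdx2* at 4.93, 7.00, 6.18 and 5.80 and then at 4.04, 4.96, 4.78 and 3.99. In both, the low replicate 1 of day 3 lay within the day 4 values, and without it both passed (-2.54 and -1.88, adjusted p = 0.0258 and 0.0439, limma). *Cdx1* also passed in 4 other alternatives and *Cdx2* in 3, among them centring (-3.06 and -2.56). *Fgf8*, a tailbud growth factor, was at 3.67, 3.60, 4.19 and 3.42 and then at 3.67, 1.47, 5.31 and 3.79. *Wnt3a*, the Wnt ligand of the tailbud, was at 0.81, 4.67, 3.61 and 2.07 and then at 2.53, 3.28, 2.96 and 0.71. Neither moved beyond its spread, with differences of -0.16 and -0.42. None of the markers listed for mesoderm (such as *Tbx6*), neural derivatives (such as *Sox1*), endoderm or trophoblast is in the tables, so the makeup of the cells was not tested with them.

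**Figure D5:**
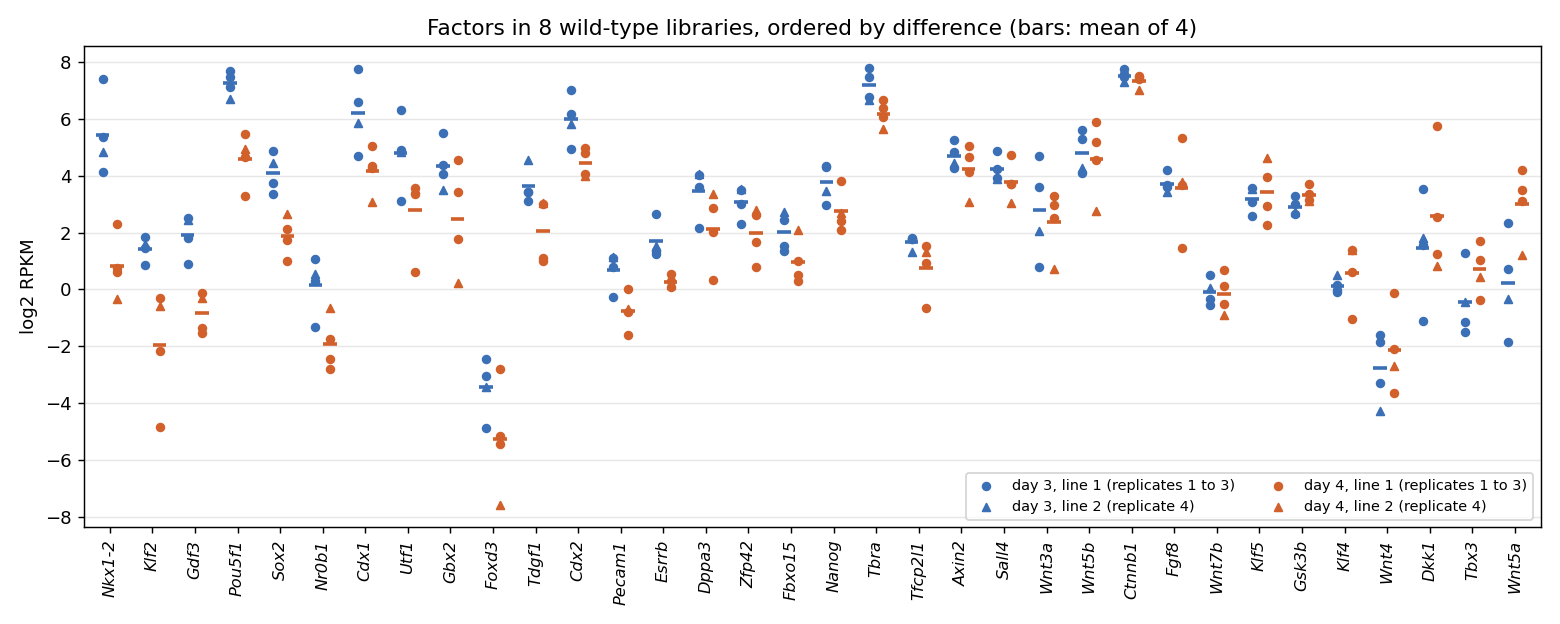
Level of each of the 34 factors in log2 RPKM (y axis), with factors ordered by their difference (x axis). Points are the 4 libraries of day 3 (blue) and of day 4 (orange), triangles mark line 2 and short bars are the means. At the left end, *Nkx1-2*, *Klf2*, *Gdf3*, *Pou5f1* and *Sox2* lie lower in every day 4 library than in any day 3 library.

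Of the 19 pluripotency factors of the study (*Sox2* set apart), 16 were lower and 3 higher at day 4, with a median difference of -1.43 beside -1.02 over the 34 factors and 0.44 over all 73 genes, and 3 were called lower (15.8%, beside 14.7% of the 34 factors). *Pou5f1* (Oct4), the core factor of pluripotency, was at 7.68, 7.45, 7.10 and 6.70 at day 3 and at 5.45, 3.27, 4.65 and 4.95 at day 4, and fell by 2.66 ± 0.64 (SE, adjusted p = 0.0105, limma). Its exons overlap the antisense gene *Gm19553* over 14.1% of their length. *Gdf3*, a TGF-beta family ligand of the pluripotent epiblast, was at 2.53, 0.89, 1.82 and 2.43 and then at -1.35, -0.11, -1.52 and -0.29, and fell by 2.73 ± 0.64 (SE, adjusted p = 0.00975). *Klf2*, a factor of naive pluripotency, was at 1.85, 1.45, 0.84 and 1.59 and then at -2.15, -0.31, -4.83 and -0.57, and fell by 3.40 ± 0.94 (SE, adjusted p = 0.0227). In replicate 3 of day 4, *Klf2* had 1 read, and its call was lost without replicate 4 of day 3 (adjusted p = 0.0635) or replicate 1 of day 4. Of the 10 naive factors in the tables, 7 were lower and 3 higher, and *Klf2* was the only one called (10%, beside 14.7% of the 34 factors). *Tbx3*, one of the 3 that were higher, was at 1.29, -1.14, -1.48 and -0.46 and then at 1.04, 1.71, -0.37 and 0.43, a difference of 1.15 (adjusted p = 0.289).

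The 14 differentiation factors had a median difference of -0.20, with 10 lower and 4 higher. *Nkx1-2* was the only one called (7.14%, beside 14.7% of the 34 factors and 23.3% of all 73 genes). The 9 genes of the Wnt pathway among them include ligands (*Wnt3a*, *Wnt4*, *Wnt5a*, *Wnt5b*, *Wnt7b*), the inhibitor *Dkk1*, the target *Axin2* and the transducers *Ctnnb1* and *Gsk3b*. These 9 had a median of -0.069, and none was called (0%, beside the same shares). Lists this short were not tested as lists. *Wnt5a*, a ligand of the non-canonical pathway, had the largest positive difference of any factor. It was at -1.85, 2.35, 0.71 and -0.32 at day 3 and at 3.51, 4.19, 3.10 and 1.22 at day 4, where only the library of line 2 lay within the day 3 range, and the difference of 2.78 ± 0.96 (SE) did not pass the test (adjusted p = 0.0546, limma). Without replicate 4 of day 4 it passed (adjusted p = 0.0188, limma), and it passed in 10 of the 21 alternatives in all. *Dkk1*, a secreted inhibitor of Wnt signalling, was at -1.10, 3.52, 1.55 and 1.80 and then at 2.55, 5.75, 1.24 and 0.81, and its difference of 1.14 was within the spread.

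The same step was compared with that of male cells of the same strain without maternal SMCHD1 (Smchd1[del/+], 4 libraries a day), which received the same medium. In these cells 19 of 73 genes (26%) were called, and 15 genes were called in the same direction in both genotypes, which is 15 of the 17 called in wild type and 15 of the 19 called here. The wild-type calls without a counterpart were *Hoxa13* (-0.30, adjusted p = 0.84) and *Klf2* (-1.83, adjusted p = 0.141). The difference between the genotypes was tested directly by an interaction term, and 0 of 73 genes (0%) were called by limma, with 0 at an unadjusted p under 0.05 and a smallest adjusted p of 0.998. The interval of that difference, maternal null minus wild type, was -4.09 to 2.14 for *Hoxd11*, -2.26 to 1.09 for *Hoxc9*, -2.01 to 2.02 for *Hoxd9*, -2.28 to 2.69 for *Nkx1-2* and -6.61 to 0.057 for *Hoxa13*, so that for each of these genes the data leave room for a difference of more than 1 log2 unit in at least 1 direction.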

How the data were processed

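RNA-seq of polyA RNA from differentiating mESCs was made by the authors, who trimmed reads with Trim Galore (0.4.4), mapped them to GRCm38.p6 with HISAT2 (2.0.5) and quantified genes in SeqMonk, scaling each gene by its length and each library by its size. The deposited values are log2 RPKM and were used as deposited, without a filter or an added pseudocount. Division by the GENCODE exon length gave whole reads for 584 of 584 values (tolerance 0.02), with 46 values at 0 reads written as 0.9 reads. From the per-million scale the relative depth of each library was taken, and its precision is limited by reads as given in the text. Samples were grouped by their labels, and 4 day 4 libraries were compared with 4 of day 3 in limma (3.58.1, R 4.3.3) over 73 genes without covariates, at a threshold of 0.05. The genotype comparison was fitted over 4 groups of 4 libraries. The strand setting of the counting is not given in the sources used here, and kits were stranded or non-stranded. The raw count table was not used because its time course headers are unreliable. The members, gene lists and alternatives were chosen with earlier results of these data known. Values in every library are given for called genes (at most 14 by size, the others also where another part of the rule names them), for the gene of each paralog group with the largest difference, for the factors that define neuromesodermal progenitors and for the 3 factors with the largest positive and the 3 with the largest negative difference. Values of *Hoxa4*, *Hoxa6*, *Hoxc8*, *Hoxb8* and *Hoxb9* were added after they were seen. The values of 1 *Hox* gene, which is part of the counts and medians, are not reported here. Intervals of read ratios are exact binomial (95%) and cover counting error only.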

Additional observations from a re-analysis of the deposited data

Results flagged for a closer look

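Of 146 sets of 4 libraries (73 genes on 2 days), 4 held a library whose gap to its nearest neighbour took more of the range than Dixon's 95% limit for 4 values allows, which chance gives in about 1 of 20 sets. *Hoxc8* was at -1.70 in day 3 replicate 1 (46 reads), while the other three libraries were between 1.03 and 1.34. *Hoxa11* was at 2.34 in day 4 replicate 2 (31 reads) and between -1.06 and -0.87 in the others. *Utf1*, a chromatin factor of pluripotent cells, was at 0.61 in day 4 replicate 2 (5 reads) and between 3.37 and 3.58 in the others. *Tfcp2l1*, a factor of naive pluripotency, was at 1.33 in day 3 replicate 4 (98 reads) and between 1.76 and 1.82 in the others. No gene was called for a change that differed between wild-type and maternal null cells.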

How the results depend on the processing

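Of the 17 called genes, 10 were called under each of the 21 alternatives that tested them (*Hoxc6*, *Hoxd8*, *Hoxa9*, *Hoxc9*, *Hoxd9*, *Hoxa10*, *Hoxc10*, *Hoxd10*, *Hoxd11* and *Nkx1-2*). Against 17 calls, library weights gave 28 (12 factors), centring gave 33 (18 factors) and the 5 libraries of at least 10 M implied reads, chosen after seeing the data, gave 11 (1 factor). The factors, 5 of which were called, were 12 in a fit over all wild-type days and 8 when the tables were fitted separately. Leaving out 1 library gave 13 to 23 calls (23, with 17 higher, without day 4 replicate 4; 13 without day 3 replicate 4 or day 4 replicate 1), 10 to 16 for Hox genes and 3 to 8 for factors (8 without day 3 replicate 1). The median difference of Hox10-13, 2.43, was 0.67 with a pseudocount of 1 and 6.43 over the 1 gene with a mean above 0, and leaving out 1 library gave 2.09 to 2.91. That of Hox1-9, 1.28, was 0.52 to 1.67 in the same way and 0.26 after centring. Same-numbered libraries had correlations of -0.014 to 0.13, so the numbers were not taken as pairs, and a replicate block gave 18 calls (11 Hox genes and 7 factors). The genotype comparison stayed at 0 calls under every alternative run, the block and 1 library left out included.

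None of the called genes changed direction. Among the others named, *Fgf8* (-0.16) became 0.42 with library weights, 0.69 in libraries of at least 5 M mapped reads and 0.62 in the 5 deepest, and ranged from -0.75 to 0.53 with 1 library left out. *Hoxa2* (0.52) became -0.50 after centring (-0.11 to 1.06 with 1 left out). *Hoxa4* (-0.45) became 0.14 and 0.18 with pseudocounts of 1 and 0.1, 0.49 with 0 reads as missing, 0.48 with weights and 0.79 in line 1 (-1.47 to 1.18). *Hoxb8* (0.11) became -0.15 in limma-voom, -0.048 with weights, -0.067 and -0.19 in the 2 sets of deeper libraries and -0.92 after centring (-0.53 to 0.63). *Hoxc12* (-0.39) became 0.87 in line 1 and 0.74 in the deepest libraries (-1.22 to 0.42), and *Wnt3a* (-0.42) ranged from -1.08 to 0.21. The cause was not tested.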

Other observations

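*Foxd3*, a factor of the early epiblast, had 15, 3, 0 and 0 reads at day 3 and 0, 0, 1 and 0 at day 4, so that its values rest on a few reads. *Hoxd13*, the last gene of its cluster, had 17, 59, 3 and 3 reads at day 3 and 46, 30, 45 and 78 at day 4, with a difference of 1.88 ± 0.83 (SE, adjusted p = 0.123, limma).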
